A study of Mus musculus with 6 samples.

Results

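Transcripts of 10 genes of interleukin-6 (IL-6) family signalling were examined in C2C12 cells, a mouse myoblast line that fuses into myotubes after serum is lowered. The genes were taken by symbol from a table of raw counts, and all 10 named symbols were found among its 43074 genes. They are the ligands Il6 and Lif, the receptor subunits Il6st, Il6ra, Lifr and Osmr, the transcription factor Stat3, and the feedback inhibitors Socs2, Socs3 and Cish. Each of 3 groups had 2 RNA sequencing libraries. Day 0 cells were untreated, and per the labels C2C12 cells were grown with 10% fetal bovine serum. The other groups were kept for 4 days in medium containing 5% horse serum to differentiate, together with DMSO, the vehicle, or with 4-phenylbutyric acid (4-PBA) at 1 mM. 4-PBA is a short aromatic acid that helps proteins fold and inhibits histone deacetylases. All groups share the wild-type genotype, the cell line and batch number 1. The labels do not say whether the libraries of a group came from separate cultures, so p-values measure only the spread between these libraries, which may be technical.

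Cytokines of the IL-6 family signal through receptor complexes that share the subunit encoded by Il6st. Il6ra binds IL-6, whereas Lifr and Osmr pair with Il6st for leukaemia inhibitory factor (LIF) and oncostatin M. The complexes activate JAK kinases, which phosphorylate STAT3, and STAT3 switches on Socs3, whose product blocks the receptor in turn. Socs2 and Cish belong to the same inhibitor family and are best known as STAT5 targets that restrain growth hormone and related receptors. In skeletal muscle IL-6 is known as a myokine released on contraction, and LIF as a mitogen of myoblasts.

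NF-κB is known to act on cytokine genes such as Il6, and STAT factors on SOCS genes, so letters that match their motifs were sought near the starts of the 10 genes and the matches are shown. RefSeq promoters of build GRCm38.p6 (250 bases before to 50 bases after the annotated start) were held for 9 of the 10 genes, all but Socs2. They were searched for TTCNNNGAA and for the same motif with 4 bases between TTC and GAA, palindromes that read the same on both strands and are bound by STAT proteins, and on both strands for the NF-κB consensus, which is 10 bases long. TTCNNNGAA occurred in Socs3 and Cish, and in 9.55% of the 27025 genes with a promoter. The form with 4 bases between occurred in none of the 9 and in 8.01% of all genes. The NF-κB consensus occurred in Il6 and Lif, and in 9.55% of all genes. The windows below give these matches in capitals, 5′ to 3′ on the strand of the gene, and positions count from 1 at the annotated start.
Il6, NF-κB consensus at -44 to -35, chr5:30013014-30013113, plus strand: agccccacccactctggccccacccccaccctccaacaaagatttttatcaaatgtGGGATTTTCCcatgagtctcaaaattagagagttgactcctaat
Lif, NF-κB consensus at -178 to -169, chr11:4257345-4257444, plus strand: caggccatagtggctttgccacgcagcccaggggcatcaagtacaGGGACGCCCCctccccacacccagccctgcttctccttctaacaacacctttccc
Socs3, TTCNNNGAA at -154 to -146, chr11:117969467-117969566, minus strand: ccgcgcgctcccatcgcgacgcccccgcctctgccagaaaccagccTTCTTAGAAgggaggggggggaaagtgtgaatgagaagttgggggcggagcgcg
Cish, TTCNNNGAA at 1 to 9 and at 12 to 20, chr9:107296654-107296683, plus strand: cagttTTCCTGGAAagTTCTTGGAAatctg
A match describes letters in these windows, which follow RefSeq's starts. The files hold no measurement of binding.

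Libraries held 47908926 to 74697397 counts, and all 10 genes passed the filter on low counts, with between 16 counts (Il6 at day 0) and 16366 counts (Il6st in DMSO) in a library. Myotube markers (6 genes, summed) rose from between 85.9 and 90.7 CPM at day 0 to between 4775 and 5165 CPM at day 4. Of the markers of other cell types, those of macrophages summed to at most 6.11 CPM in a library, those of endothelium to at most 2.96 CPM, those of glia to at most 4.23 CPM and those of adipocytes to at most 0.412 CPM. The macrophage sum, most of it Cd68, was lower at day 4 (1.63 to 2.85 CPM) than at day 0 (5.74 to 6.11 CPM). In DMSO the glia sum was higher than at day 0 (4.00 to 4.23 CPM against 2.51 to 2.78 CPM), as was the endothelial sum (2.72 to 2.96 CPM against 1.71 to 1.95 CPM). In 4-PBA these sums were 2.93 to 3.61 CPM and 2.17 to 2.32 CPM. The part of these markers in the results was not tested. The defining markers Ptprc (macrophage) and Cidec and Lep (adipocyte) had at most 3 counts in each library and Sox10 (glia) had none. Levels are CPM, counts divided by library size after scaling with the trimmed mean of M-values (TMM). A gene was called when its adjusted p in edgeR's quasi-likelihood test was under 0.05 over all 17433 tested genes.

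Between day 0 and day 4 in DMSO most of these genes changed. Both ligands, 2 of the 4 receptor subunits, Stat3, Socs2 and Socs3 rose, the receptor genes Il6ra and Osmr fell, and Cish was not called. That is 9 of 10 genes called, 7 higher and 2 lower, where 66.3% of all tested genes were called, 33.8% higher and 32.6% lower. The median log2 fold change was 0.91 over the 10 genes and 0.023 over all tested genes. In 9 of the 10, both libraries of DMSO lay on the same side of both day 0 libraries, as they did for 81.9% of tested genes. At adjusted p under 0.01 the count was 9 of 10 (58.5% of tested genes), and with a change of at least 1.5-fold it was 7 of 10 (35.0%), without Il6st and Osmr. Time, medium and DMSO cannot be told apart in this comparison. In bulk RNA, fewer cells that make a transcript and less transcript per cell cannot be told apart.

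**Figure D1:**
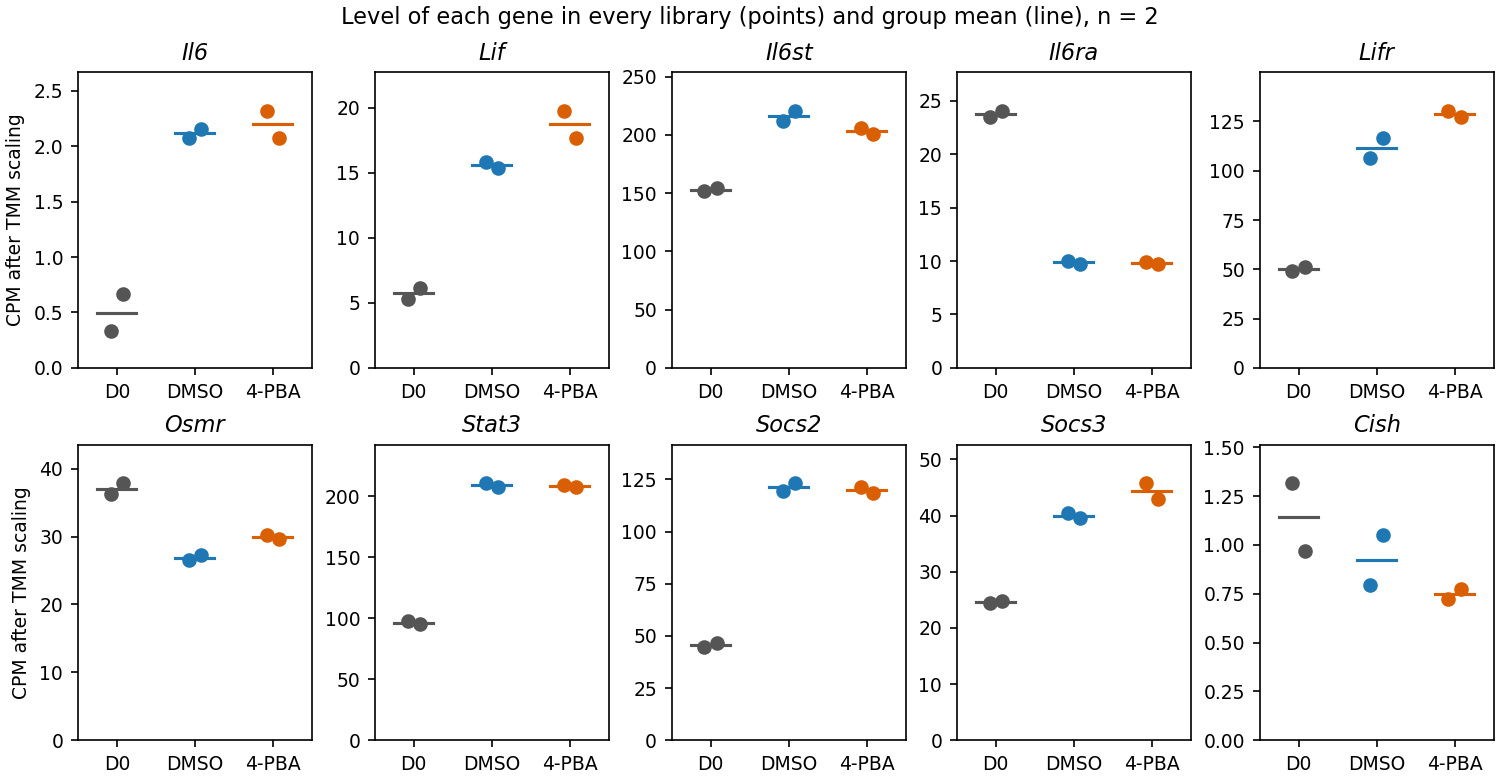
Levels of the 10 genes in each library, in CPM after scaling, with day 0 in grey, DMSO in blue and 4-PBA in orange; points are libraries, lines are means of 2 libraries, and each panel has its own axis from 0. Il6 and Lif rose and Il6ra and Osmr fell between day 0 and both day 4 groups, and the panel of Lifr has both 4-PBA libraries (127 and 130.4 CPM) above both DMSO libraries (106 and 117 CPM).

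Il6, which encodes the founding cytokine of the family, was the less abundant of the 2 ligands. It stood at 0.329 and 0.669 CPM at day 0, 2.08 and 2.16 CPM in DMSO, and 2.32 and 2.08 CPM in 4-PBA. All day 4 libraries were above both day 0 libraries, and the day 0 libraries themselves lay far apart, on 16 and 47 counts. The rise in DMSO was 4.05-fold (log2 fold change 2.02, SE 0.270, adjusted p 3.99e-08). Its size rested on the day 0 libraries: the log2 fold change was 1.66 without day 0 replicate 1 and 2.68 without day 0 replicate 2, and for 4-PBA against day 0 it was 1.71 and 2.73.

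Lif, whose product signals through Lifr and Il6st, was the more abundant of the pair per transcript length in each of the 6 libraries. It stood at 5.31 and 6.18 CPM at day 0, 15.8 and 15.4 CPM in DMSO, and 19.8 and 17.7 CPM in 4-PBA. The 3 groups did not overlap, in 4-PBA highest. In DMSO the rise over day 0 was 2.69-fold (log2 fold change 1.43, SE 0.0942, adjusted p 1.22e-15).

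The receptor subunits did not move in 1 direction. Lifr, the LIF receptor, rose from 49.0 and 51.1 CPM at day 0 to 106 and 117 CPM in DMSO, 2.23-fold (log2 fold change 1.16, SE 0.0432, adjusted p 7.69e-22). Osmr, which takes the place of Lifr in the oncostatin M receptor, fell from 36.2 and 37.9 CPM to 26.5 and 27.3 CPM (log2 fold change -0.46, SE 0.0577, adjusted p 9.62e-09). Neither pair of groups overlapped. Per transcript length, the ratio of Lifr to Osmr was therefore 0.769 and 0.767 in the day 0 libraries, 2.28 and 2.43 in DMSO, and 2.45 and 2.44 in 4-PBA. Osmr transcripts exceeded those of Lifr at day 0 and Lifr exceeded Osmr in every day 4 library.

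Il6ra, the subunit that makes a cell responsive to IL-6 itself, fell from 23.4 and 24.1 CPM at day 0 to 9.98 and 9.75 CPM in DMSO, 2.41-fold lower (log2 fold change -1.27, SE 0.0790, adjusted p 2.53e-16). Il6st, the subunit that all these complexes share, rose from 152 and 154 CPM to 212 and 221 CPM, 1.41-fold (log2 fold change 0.50, SE 0.0330, adjusted p 1.34e-15). The ratio of Il6st to Il6ra per transcript length was 6.44 and 6.39 at day 0, 21.1 and 22.5 in DMSO, and 20.8 and 20.5 in 4-PBA. The transcript of the ligand Il6 thus rose while that of its own receptor subunit fell, and Lif and Lifr rose together.

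Stat3, the transcription factor downstream of these receptors, stood at 97.8 and 94.98 CPM at day 0 and at 211 and 208 CPM in DMSO, 2.17-fold higher (log2 fold change 1.12, SE 0.0335, adjusted p 1.40e-25). Its libraries within a group differed little and the groups did not overlap. In GENCODE M21 its exons share 72 bases with Stat5a on the opposite strand, those of Il6ra share bases with Gm42809 and those of Cish with Gm17040 and Gm17041. Since the use of strand in counting is not given in the sources used here, these 3 genes are uncertain to that extent.

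The 3 inhibitor genes differed. Socs2 rose from 44.6 and 46.7 CPM at day 0 to 119 and 123 CPM in DMSO, 2.65-fold (log2 fold change 1.41, SE 0.0403, adjusted p 3.54e-26). Socs3, the main inhibitor of receptors that contain Il6st, rose from 24.5 and 24.7 CPM to 40.4 and 39.6 CPM, 1.63-fold (log2 fold change 0.70, SE 0.0557, adjusted p 1.92e-13). Both were apart from day 0 in both libraries. Cish, the founding member of the inhibitor family, stayed near 1 CPM, at 1.32 and 0.969 CPM at day 0 and 0.792 and 1.05 CPM in DMSO. The 2 groups overlapped for Cish (log2 fold change -0.29, 95% interval -0.88 to 0.31, adjusted p 0.402), on 50 to 78 counts a library, so changes within that interval were not detectable at this depth. Of the inhibitors with a promoter, Socs3 and Cish both held TTCNNNGAA (windows above), and of these Socs3 was called and Cish was not.

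**Figure D2:**
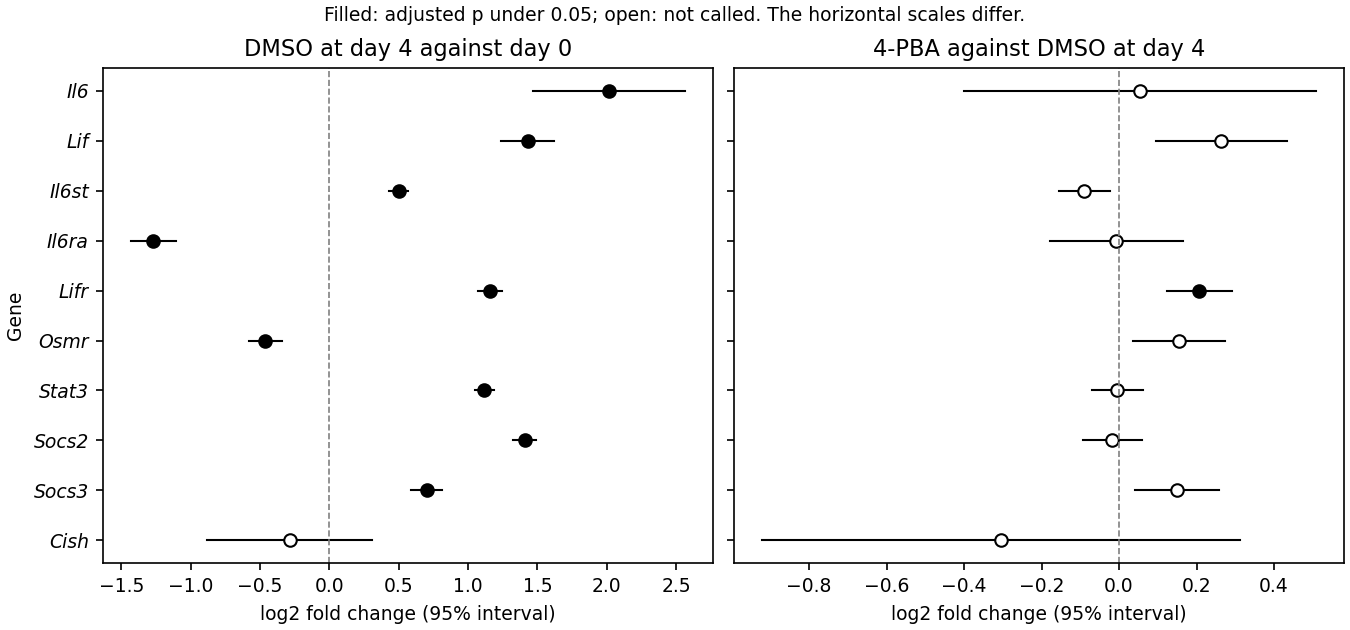
Log2 fold changes of the 10 genes with 95% intervals, DMSO at day 4 against day 0 on the left and 4-PBA against DMSO on the right; filled points were called at adjusted p under 0.05. On the left 9 genes are filled, from -1.27 for Il6ra to 2.02 for Il6; on the right Lifr alone is filled, at 0.21, and the horizontal scale is narrower.

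Between 4-PBA and DMSO at day 4, Lifr was the gene called of the 10, against 4.90% of all tested genes (2.13% higher and 2.78% lower). At adjusted p under 0.01 it was called as well (2.43% of tested genes), and with a change of at least 1.5-fold none of the 10 was (0.338%). Lifr rose from 106 and 117 CPM in DMSO to 130.4 and 127 CPM in 4-PBA, which is 15.5% higher (log2 fold change 0.21, SE 0.0409, adjusted p 0.00142). Both 4-PBA libraries lay above both DMSO libraries. The DMSO libraries differed from each other by about as much as the higher of them did from the lower 4-PBA library. The call was lost without 4-PBA replicate 1 (log2 fold change 0.19, adjusted p 0.0623), and over all alternatives the log2 fold change ran from 0.14 to 0.28. Of the 6 myotube markers 2 were lower in 4-PBA, with summed levels of 4775 to 4883 CPM against 4842 to 5165 CPM in DMSO. The 5 myoblast markers summed to between 891 and 893 CPM in 4-PBA and to between 813 and 849 CPM in DMSO. Of these 1 was called higher, Cdh15, which made up most of the sum (means of 598 CPM in 4-PBA and 554 CPM in DMSO). Cdh15 also rose between day 0 and DMSO (log2 fold change 0.92, SE 0.0293, adjusted p 8.23e-25). At day 0 the 5 markers summed to between 849 and 855 CPM. That sum hides opposite changes between day 0 and DMSO, where 3 of the 5 were called higher and 2 lower. Over all tested genes 33.8% were called higher and 32.6% lower. Mki67 fell from a mean of 411 CPM at day 0 to 139 CPM in DMSO (log2 fold change -1.56). Myf5 fell from 50.2 to 22.9 CPM (-1.14). The part of these differences between 4-PBA and DMSO in the rise of Lifr was not tested.

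Lif, the ligand of that receptor, was not called (log2 fold change 0.26, SE 0.0829, adjusted p 0.0580), although both 4-PBA libraries (19.8 and 17.7 CPM) were above both DMSO libraries (15.8 and 15.4 CPM). Its adjusted p fell under the threshold in 4 of 14 alternatives, namely library size only (0.0481), no filter beyond 1 count (0.0356), the stricter filter (0.0484) and a fit of only the 4 libraries compared (0.0459), in a range that reached 0.517. The position of Lif relative to the threshold was thus decided by the settings.

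Osmr (log2 fold change 0.15, SE 0.0582, adjusted p 0.135) and Socs3 (0.15, SE 0.0531, adjusted p 0.102) were not called, with both 4-PBA libraries above both DMSO libraries. Osmr stood at 30.2 and 29.7 CPM in 4-PBA and Socs3 at 45.8 and 43.0 CPM. Il6st lay the other way, at 206 and 201 CPM in 4-PBA against 212 and 221 CPM in DMSO (-0.090, SE 0.0327, adjusted p 0.115), and it was called without DMSO replicate 1 (-0.12, adjusted p 0.0168). Groups did not overlap for 6 of the 10 genes, Cish among them, as for 45.5% of all tested genes.

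Stat3, Socs2, Il6ra and Il6 overlapped between the day 4 groups. For Stat3 (209.5 and 207 CPM in 4-PBA) the 95% interval of the log2 fold change was -0.071 to 0.061, and for Socs2 (121 and 118 CPM) it was -0.094 to 0.060. That for Il6ra (9.87 and 9.76 CPM) was -0.18 to 0.16. The intervals of these 3 genes exclude changes as large as the rise of Lifr. Those of Il6 (-0.40 to 0.51) and of Cish (-0.92 to 0.31, at 0.725 and 0.773 CPM in 4-PBA) are wide.

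The comparison of 4-PBA with day 0 shares its day 0 libraries with the DMSO comparison, so its values are given beside those above and not as further support. It called 9 of the 10 genes, 7 higher and 2 lower, where 65.6% of all tested genes were called, 33.2% higher and 32.4% lower. All 10 were without overlap (81.8% of tested genes), 9 were called at adjusted p under 0.01 (57.8%) and 7 with a change of at least 1.5-fold (34.3%). The log2 fold change was 2.07 (SE 0.271) for Il6, 1.69 (SE 0.0937) for Lif and 1.36 (SE 0.0432) for Lifr. It was 0.41 (SE 0.0331) for Il6st, -1.28 (SE 0.0798) for Il6ra and -0.31 (SE 0.0576) for Osmr. For the factor Stat3 it was 1.11 (SE 0.0336), and for the inhibitors Socs2 and Socs3 it was 1.39 (SE 0.0404) and 0.85 (SE 0.0557). These 9 adjusted p-values lay between 5.81e-26 for Socs2 and 1.59e-05 for Osmr. Cish was not called (-0.59, SE 0.303, adjusted p 0.0851), although both 4-PBA libraries were below both day 0 libraries.

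Levels of different genes were compared as RPKM, here scaled CPM per kilobase of the longest GENCODE M21 transcript. At day 0 the order from high to low was Il6st (17.6 ± 0.216 RPKM, SD, n = 2), Stat3, Socs2, Socs3, Osmr, Lifr, Il6ra, Lif, Cish and Il6. Neighbours in that order did not overlap between libraries, apart from Cish (0.243 ± 0.0524 RPKM) and Il6 (0.213 ± 0.103 RPKM). With DMSO it was Stat3 (34.6 ± 0.341 RPKM), Socs2, Il6st, Socs3, Lifr, Osmr, Lif, Il6ra, Il6 and Cish, with no overlap of neighbours, and the 4-PBA libraries had this order as well. Lifr thus passed Osmr and Lif passed Il6ra. Il6 and Cish overlapped at day 0, and Il6 lay above Cish in every day 4 library. The place of Socs2 depended on the transcript taken: with the longest coding transcript, an alternative chosen after seeing the data, Socs2 came first in all 3 groups, at 20.5 RPKM at day 0 and 54.6 RPKM in DMSO. Cish was affected as well, with a mean of 0.401 RPKM at day 0 against 0.213 RPKM for Il6. With that transcript Cish and Il6 no longer overlapped at day 0, and their order was unchanged in each group.

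**Figure D3:**
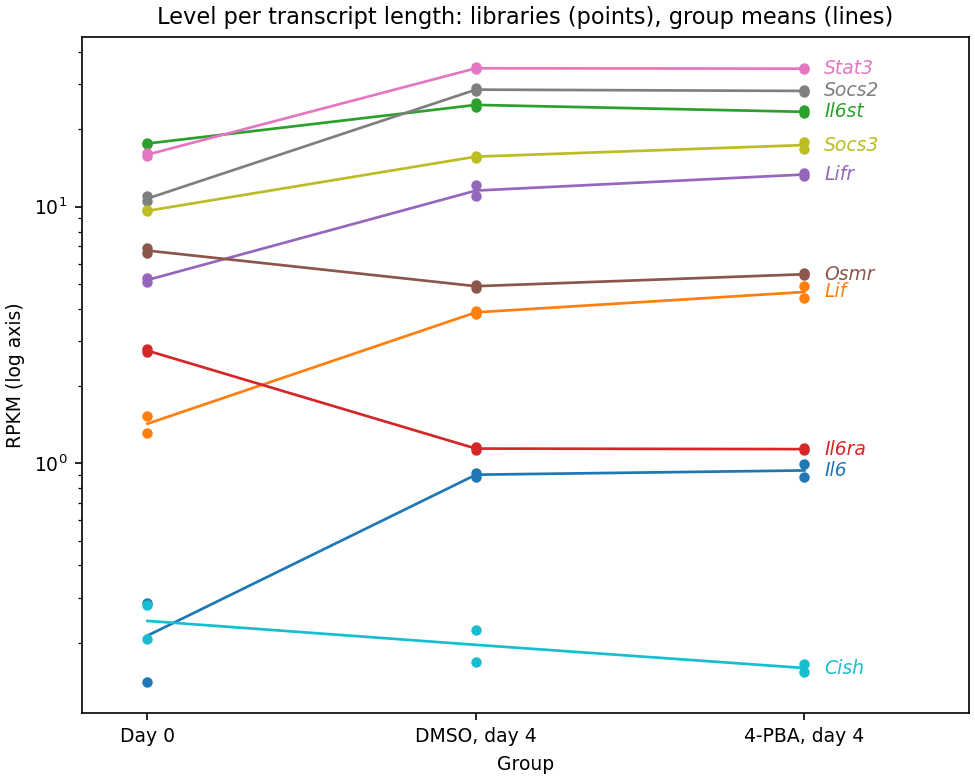
Level per transcript length (RPKM, log axis) of the 10 genes in day 0, DMSO and 4-PBA libraries; points are libraries and lines join the means of 2 libraries. The lines of Lifr and Osmr cross between day 0 and DMSO, as do those of Lif and Il6ra, and the lines between DMSO and 4-PBA are nearly level.

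The genes with the most similar course over the 6 libraries were sought for Il6, Lif and Socs2, the called genes with the largest changes in DMSO, by the root-mean-square difference of centred log2 CPM. Among 12795 genes with a mean of at least 1 CPM, those nearest to Il6 were Gfpt2 (0.103), Dok6 (0.106) and Itih2 (0.121). Nearest to Lif were Capn6 (0.0554), Glrb (0.0570) and Gadd45b (0.0609), and nearest to Socs2 were Mef2a (0.0174), Sparc (0.0243) and Tbx18 (0.0253). Mef2a, a transcription factor of muscle genes, stood at a mean of 125 CPM at day 0, 333 CPM in DMSO and 330.3 CPM in 4-PBA. The distances describe likeness of level alone.

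Of 70 further genes of the pathway in 8 lists, 61 passed the filter on low counts. In DMSO against day 0, 26 of these were called higher and 19 lower (73.8%, against 66.3% of all tested genes), with a median log2 fold change of 0.075 against 0.023. Between 4-PBA and DMSO 3 were called higher and 6 lower (14.8%, against 4.90% of all tested genes), with a median of -0.0045 against 0.0021.

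Among 8 other ligand genes, 5 were tested. Clcf1, a cytokine that signals through Lifr and Il6st, fell in DMSO from 77.1 and 76.5 CPM at day 0 to 26.3 and 25.7 CPM (log2 fold change -1.56, SE 0.0509, adjusted p 1.66e-24). It thus moved against Lif. Osm, the gene of oncostatin M, had no count in any library, and Ebi3 had at most 1. Exons of Clcf1 share 311 bases with AC109138.7 on the same strand, so its value is uncertain to that extent.

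Of 4 other receptor genes 1 was called in DMSO (25%, against 66.3% of all tested genes). This was Il27ra, which was lower (log2 fold change -1.91, SE 0.602, adjusted p 0.00578). None of the 4 was called between 4-PBA and DMSO, where 4.90% of all tested genes were. Their median log2 fold change there was 0.54, against 0.0021 over all tested genes. It lies between Cntfr (0.67, means of 1.72 CPM in 4-PBA and 1.08 CPM in DMSO) and Il31ra (0.40). The 4-PBA libraries of Il31ra stood far apart, at 70.3 and 134 CPM. Il27ra rested on 26 and 26 counts at day 0 and 10 and 6 in DMSO, and the call was lost without day 0 replicate 1 (adjusted p 0.0630) or DMSO replicate 2 (adjusted p 0.0842). Of the 4 JAK kinases 2 were called in DMSO (50%, against 66.3% of all tested genes). Jak2 fell (-0.35, SE 0.0486, adjusted p 1.09e-07), whereas Tyk2 rose (0.24, SE 0.0502, adjusted p 7.26e-05). No JAK gene was called between 4-PBA and DMSO (4.90% of all tested genes). Jak1, the kinase most tied to Il6st, stood between 183 and 193 CPM in the 6 libraries.

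Of the other 5 tested STAT genes, 3 were called higher in DMSO and none lower (60%, against 66.3% of all tested genes). Stat5b went from 31.3 and 31.8 CPM at day 0 to 44.1 and 46.6 CPM (log2 fold change 0.52, SE 0.0587, adjusted p 4.04e-09). Stat5a went from 18.3 and 17.9 CPM to 25.4 and 25.2 CPM (0.48, SE 0.0654, adjusted p 5.03e-08). Stat5a shares the 72 exon bases with Stat3. No STAT gene was called between 4-PBA and DMSO (4.90% of all tested genes).

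All 5 other SOCS genes were called in DMSO, 2 higher and 3 lower, where 33.8% of all tested genes were higher and 32.6% lower. Socs7 rose (0.69, SE 0.0452, adjusted p 8.98e-16) and Socs5 fell (-0.75, SE 0.0381, adjusted p 6.60e-19). Socs1, the closest relative of Socs3 in function and named after its values were seen, fell from 12.4 and 12.02 CPM to 3.87 and 3.91 CPM (-1.65, adjusted p 1.17e-14) while Socs3 rose. No other SOCS gene was called between 4-PBA and DMSO (4.90% of all tested genes).

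Other brakes on JAK-STAT signalling were 13 phosphatases, PIAS proteins, adaptors and ubiquitin ligase subunits. In DMSO 7 were called higher and 5 lower (92.3%, against 66.3% of all tested genes). The phosphatase gene Ptpn11 rose (0.27, SE 0.0301, adjusted p 6.23e-10), as did Rnf7, a ubiquitin ligase subunit (0.31, SE 0.0489, adjusted p 9.28e-07). Between 4-PBA and DMSO 1 was called higher and 1 lower (15.4%, against 4.90% of all tested genes). The lower was Sh2b3, an adaptor that restrains JAK2 (-0.17, SE 0.0412, adjusted p 0.00962). The higher was Elob, a partner of SOCS proteins (0.12, SE 0.0369, adjusted p 0.0411). Sh2b3 was not called without DMSO replicate 1 (adjusted p 0.0973) or 4-PBA replicate 1 (0.222). Elob was not called without DMSO replicate 1 (0.107), 4-PBA replicate 1 (0.116), 4-PBA replicate 2 (0.398), day 0 replicate 1 (0.0729) or day 0 replicate 2 (0.0720), nor with the replicate block (0.0568).

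Of 20 genes known as STAT3 targets, 17 were tested. In DMSO 8 were called higher and 6 lower (82.4%, against 66.3% of all tested genes; median log2 fold change 0.075), with Bcl6, a transcriptional repressor, at 1.27 (SE 0.0590, adjusted p 2.98e-19) and Ccnd1, the cyclin of cell cycle entry, at -2.13 (SE 0.0330, adjusted p 4.69e-34). Between 4-PBA and DMSO none of the 17 was called higher and 5 were called lower (29.4%, against 4.90% of all tested genes; median -0.071), among them Ccnd1 (-0.29, SE 0.0328, adjusted p 4.38e-07) and Il4ra, a receptor of interleukin-4 (-0.26, SE 0.0486, adjusted p 6.63e-04). The target Lcn2 had no count in any library. Il4ra was not called without 4-PBA replicate 2 (adjusted p 0.0523). Exons of Ccnd1, Il4ra, Bcl6, Sh2b3, Elob, Tyk2 and Il27ra overlap other genes on the opposite strand, again in GENCODE M21.

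In the STAT5 branch, to which Socs2 and Cish belong, 8 of 10 genes were tested. In DMSO 5 were called higher and 2 lower (87.5%, against 66.3% of all tested genes). Ghr, the growth hormone receptor, rose from 73.7 and 71.2 CPM to 142 and 155 CPM (log2 fold change 1.04, SE 0.0394, adjusted p 9.21e-22). Igf1, a growth factor induced by growth hormone in many tissues, rose from 0.946 and 0.684 CPM to 19.6 and 21.5 CPM (4.69, SE 0.127, adjusted p 5.83e-27). In 4-PBA it was higher again, at 28.1 and 25.8 CPM (0.39 against DMSO, SE 0.0765, adjusted p 0.00127), and this call was lost without 4-PBA replicate 1 (adjusted p 0.0834). Ghr, Igf1 and Socs2 thus rose in DMSO while Cish was not called.

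**Figure D4:**
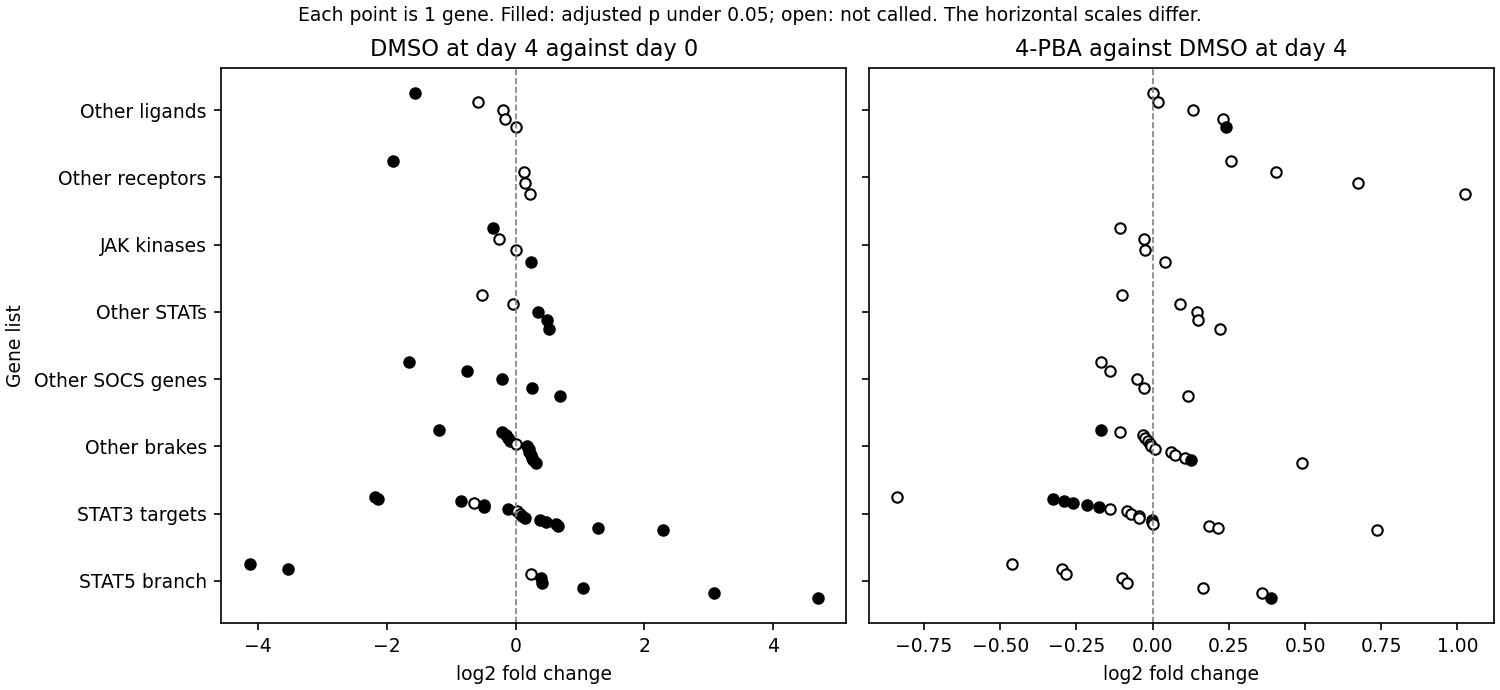
Log2 fold changes of the 61 tested pathway genes outside the 10, by list, DMSO at day 4 against day 0 on the left and 4-PBA against DMSO on the right; each point is 1 gene and filled points were called. Igf1 lies farthest right on the left panel at 4.69, and on the right panel the 5 filled points of the STAT3 targets are below 0.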

How the data were processed

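Directional RNA libraries were made from 100 ng of total RNA of C2C12 cells after DNase treatment, per the labels' protocols. The deposited values are raw counts per gene symbol with 1 column per library. The build was GRCm39, per the submitters' processing notes; the aligner, counter, annotation and use of strand are not given in the sources used here. The reference tables are of GRCm38, so coordinates are printed only with the RefSeq promoters.

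Counts were fitted with edgeR 4.0.16 in R 4.3.3: filterByExpr, TMM scaling, estimateDisp and robust glmQLFit with a mean for each of the 3 groups over all 6 libraries (3 residual degrees of freedom). Quasi-likelihood F tests were adjusted by Benjamini-Hochberg over all 17433 tested genes. The SE was taken as the size of the log2 fold change over the square root of F. Permuting 2 libraries against 2 gives an exact two-sided p of at least 0.333, and the adjusted p-values borrow the spread of all genes. The common biological coefficient of variation was 3.74%. Replicates differed by more than sampling noise (chi-square per degree of freedom 3.77 to 6.64).

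Alternatives were DESeq2 1.42.0 size factors and Wald test, library size only, 2 other filters, limma-voom (limma 3.58.1), fits of 4 libraries, a replicate block, stricter thresholds (adjusted p under 0.01, and a change of at least 1.5-fold) and leaving out each library. The genes and lists were chosen with earlier results of these data known. Named list genes were the 2 with the smallest adjusted p among those called, in DMSO against day 0 and in 4-PBA against DMSO, together with genes that had no more than 3 counts in any library, and, for the 3 of the 10 genes with the largest called change in DMSO, the 3 genes nearest in course. A gene that this rule names is not reported here. The NF-κB search and the ratios between genes were added after seeing the data. Transcript lengths came from GENCODE M21, which held all 10 genes. Figures were drawn with matplotlib 3.10.9.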

Additional observations from a re-analysis of the deposited data

How the results depend on the processing

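In both comparisons with day 0, 9 of the 10 genes were called under each setting, apart from 7 when a change of at least 1.5-fold was also required. Between 4-PBA and DMSO the count of 1 became 2 with library size only, no filter beyond 1 count, the stricter filter or a fit of the 4 libraries compared. It became 0 with a minimum change of 1.5-fold, and ran from 0 to 2 when 1 library was left out (0 without 4-PBA replicate 1, 2 without DMSO replicate 1). Over all tested genes 855 were called, and 341 and 295 without 4-PBA replicates 1 and 2.

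Between 4-PBA and DMSO, log2 fold changes near 0 changed sign. With library size only, Il6ra was 0.0028 and Stat3 0.0043. When 1 library was left out, Il6 ranged from -0.027 to 0.13, Il6ra from -0.023 to 0.0093, Stat3 from -0.014 to 0.0038 and Socs2 from -0.042 to 0.0083. The cause was not tested. The DESeq2 Wald test, limma-voom, the 4-library fit and the replicate block left Elob uncalled (adjusted p 0.0558, 0.0504, 0.0672 and 0.0568). With the replicate block 9, 1 and 9 of the 10 genes were called in the 3 comparisons. Deviations of same-numbered libraries were uncorrelated across 17433 genes (r from -0.0279 to -0.00306), so no shift shared by replicate number was seen. The correlation cannot decide whether same-numbered libraries came from the same culture. Cish was not tested under the stricter filter. Depth limits Il6 and Cish, with 16 to 160 counts a library.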

Other observations

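Il31ra, which pairs with Osmr in the interleukin-31 receptor and was singled out after its values were seen, had the highest CPM of the other receptor genes. It stood at 82.3 and 51.4 CPM at day 0, 82.3 and 72.6 CPM in DMSO, and 70.3 and 134 CPM in 4-PBA. The 4-PBA libraries lay on either side of the DMSO libraries, and no difference was called between 4-PBA and DMSO (log2 fold change 0.40, adjusted p 0.783).

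Of the 6 receptor genes tested in the STAT5 branch, Csf2rb and Il7r fell in DMSO against day 0. In that comparison 66.3% of all tested genes were called, 33.8% higher and 32.6% lower. Epor (log2 fold change 0.39, adjusted p 0.0355) and Il2rg (0.40, adjusted p 0.00114) rose, as Ghr did, and Il15ra was not called (0.24, adjusted p 0.652). Exons of Il2rg share 728 bases with Gm20489 on the same strand, so its value is uncertain to that extent. Csf2rb, the shared receptor subunit of interleukin-3 and related cytokines, went from 7.74 and 8.55 CPM at day 0 to 0.444 and 0.485 CPM in DMSO (log2 fold change -4.12, adjusted p 2.90e-19). Il7r, the interleukin-7 receptor, went from a mean of 0.537 CPM to 0.0428 CPM (-3.53, adjusted p 8.37e-05). Il15, a muscle cytokine, rose from 0.905 and 0.313 CPM to 4.50 and 5.07 CPM (3.08, adjusted p 4.76e-09). The summed macrophage markers fell over the same interval, from between 5.74 and 6.11 CPM to at most 2.63 CPM in DMSO. Most of that sum was Cd68 (means of 5.39 CPM at day 0 and 1.90 CPM in DMSO). Of the 3 macrophage markers tested, Cd68 and Csf1r were called, both lower (66.7%, against 66.3% of all tested genes called and 32.6% called lower). Adgre1 was not called, with means of 0.139 CPM at day 0 and 0.216 CPM in DMSO. The part of these markers in the changes above was not tested. These genes were named after their values were seen.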
